A study of Mus musculus with 36 samples.

Results

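The genes described here encode the SR proteins (symbols Srsf1 to Srsf12) and the heterogeneous nuclear ribonucleoproteins (symbols starting with Hnrnp) of the mouse. They were taken by symbol alone, leaving out entries marked as pseudogenes. The rule found 31 genes, 11 Srsf and 20 Hnrnp, among 25239 genes in the P-body and cytoplasm table, 25229 in the polysome and total RNA table and 48440 in the Ago2 KO table. All 31 passed the filter on low reads in each comparison.

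SR proteins and hnRNPs bind nascent transcripts and set which exons are kept. SR proteins carry an RNA-recognition motif and a tail rich in arginine-serine dipeptides, and in general they promote exon inclusion, whereas many hnRNPs carry glycine-rich or arginine-glycine stretches and often repress splice sites. Several of these genes control their own mRNA through a poison exon, which exposes the spliced transcript to nonsense-mediated decay. P-bodies are cytoplasmic condensates that hold untranslated mRNA together with repressors such as DDX6 and LSM14A.

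The coding stretches below are shown because the density of arginine-serine codon pairs separates the SR from the hnRNP members, and the families are compared throughout. Each is the run of 32 codons with the most adjacent pairs, read 5′ to 3′ from the GRCm38 genome with GENCODE vM21 transcripts.
Srsf7: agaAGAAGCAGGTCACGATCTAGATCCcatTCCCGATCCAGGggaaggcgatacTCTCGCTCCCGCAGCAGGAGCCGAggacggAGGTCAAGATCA
Srsf3: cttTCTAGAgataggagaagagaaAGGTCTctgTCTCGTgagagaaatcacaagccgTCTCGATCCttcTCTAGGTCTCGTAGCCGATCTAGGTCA
Srsf1: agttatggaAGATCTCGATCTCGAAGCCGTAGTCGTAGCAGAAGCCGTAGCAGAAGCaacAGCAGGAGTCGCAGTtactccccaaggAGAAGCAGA
Hnrnpu: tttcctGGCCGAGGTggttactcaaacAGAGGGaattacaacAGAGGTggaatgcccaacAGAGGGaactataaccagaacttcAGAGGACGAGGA
Hnrnpa1: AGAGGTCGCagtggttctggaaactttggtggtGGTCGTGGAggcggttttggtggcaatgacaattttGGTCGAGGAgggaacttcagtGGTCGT
Hnrnpr: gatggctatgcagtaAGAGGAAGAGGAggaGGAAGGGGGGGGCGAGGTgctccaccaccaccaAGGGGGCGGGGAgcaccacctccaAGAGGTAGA

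Capitals mark adjacent arginine and serine codons, in either order, in Srsf7, Srsf3 and Srsf1, which hold 20, 13 and 21 such pairs. In Hnrnpu, Hnrnpa1 and Hnrnpr they mark adjacent arginine and glycine codons, of which there are 8, 7 and 12. The Srsf7 stretch lies on the minus strand of chr17:80204223-80205272 and crosses 3 exons. The Srsf3 stretch is at chr17:29041211-29041396 on the plus strand, over 2 exons, and that of Srsf1 at chr11:88049460-88049555 on the plus strand, in 1 exon. The Hnrnpu stretch is at chr1:178329922-178330242 on the minus strand, the Hnrnpa1 stretch at chr15:103242295-103242471 on the plus strand, and the Hnrnpr stretch at chr4:136339609-136339704 on the plus strand. All 6 are coding exon sequence, and spans longer than 96 bases include introns. Over whole coding sequences, the SR members held 40.4 (Srsf9) to 234.2 (Srsf2) arginine-serine pairs per 1000 codons, and the hnRNP members 2.7 (Hnrnpm) to 25.4 (Hnrnpa2b1), so the families did not overlap in this measure. Arginine-glycine pairs did not separate them, at 3.9 (Srsf11) to 44.8 (Srsf9) per 1000 codons in the SR and 6.8 (Hnrnpll) to 53.7 (Hnrnpr) in the hnRNP members.

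RNA was sequenced from 36 libraries in 16 groups. GFP-LSM14A, delivered by lentivirus, was carried by every cell sorted for P-bodies, and the P-body fraction was compared with the cytoplasm fraction it was sorted from (2 libraries per group). By the study's methods, that fraction was the resuspended pellet of a spin of lysate cleared of nuclei, with its P-bodies still in it. RNA left in the supernatant was not sequenced, and cytoplasm below means this fraction. These cells were v6.5 mouse embryonic stem (ES) cells, an F1 hybrid of C57BL/6 and 129S4Sv/Jae, kept naive in N2B27 with PD0325901, CHIR99021 and LIF or primed with activin A, bFGF and KnockOut Serum Replacement; mouse embryonic fibroblasts (MEFs) from mid-gestation embryos of CD1 wild type or reprogrammable mice; MEFs at day 3 of doxycycline-induced Oct4, Klf4, Sox2 and Myc expression, with or without an shRNA against Nudt21; and Ago2 knockout (KO) ES cells, which were single-cell clones of v6.5. The reprogrammable cells carried the doxycycline-inducible factors at Col1a1, M2-rtTA at Rosa26 and Pou5f1-EGFP. Which clone each KO library came from is not given in the sources used here. Polysome and total RNA (3 libraries per group) came from naive ES cells carrying GFP-LSM14A and a homozygous DDX6 degron tag, made as single-cell clones. Both groups carried the tag, since the control was these cells with DMSO and the other group had DDX6 degraded with dTAG-13. This treatment was acute, lasting hours rather than days, so later effects of DDX6 loss were not measured. Cycloheximide was used in both groups. The study's methods call the replicates biologically independent and the labels do not say what separates them, so p-values measure the spread between these libraries.

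Library totals ran from 6769727 to 31185799 reads for P-body and cytoplasm, 13308776 to 29362187 for polysome and total RNA, and 15624342 to 17486206 for the Ago2 KO. Nudt21 was at 5.01 to 5.96 CPM (reads scaled to the library total) in the knockdown libraries and 89.1 to 115 CPM in the day 3 controls. Ago2 was at 2.57 to 4.52 CPM in the KO libraries, whose table holds no control. The degron acts on protein, so Ddx6 mRNA (186 to 199 CPM in degron and 208 to 238 CPM in control total RNA) does not check it. Summed CPM of 7 fibroblast markers was 33000 and 36120 in MEF cytoplasm and at most 79.2 in naive and primed libraries, and that of 7 pluripotency markers was 2315 to 2909 in naive libraries and at most 92.7 in MEFs. The first replicate of a group is named first wherever values are listed, and those values are CPM scaled by TMM within the comparison. Sums over gene lists, above and below, are instead CPM scaled to the library total. TMM, a scaling that sets the average gene near no change, moved the log2 differences by 0.222 in naive P-bodies and by between -0.252 and 0.199 elsewhere, so each difference is relative to that average.

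P-body enrichment, the level in P-bodies over that in the cytoplasm, was first measured in naive ES cells. Of the 31 members, 12 were higher in naive P-bodies and 4 were lower at an adjusted p under 0.05. Among all genes tested, 22.6% were higher and 15.4% lower. The members' median log2 difference was 0.07, against -0.06 over all genes. SR genes were called higher in 6 of 11 and lower in 1, with a median of 0.54, and hnRNP genes higher in 6 of 20 and lower in 3, with a median of 0.00.

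Srsf3, the smallest SR protein and an adaptor for mRNA export, was the most abundant SR mRNA in naive P-bodies. Its P-body libraries read 1000 and 1025 CPM and its cytoplasm libraries 326 and 336 CPM, a log2 difference of 1.61 ± 0.09 (SE) with an adjusted p of 0.000424 (edgeR's quasi-likelihood test, Benjamini-Hochberg adjusted), or 3.06-fold. Differences in brackets hereafter are on the same log2 scale with the same SE. Both P-body libraries lay far above both cytoplasm libraries. Srsf12, a little-expressed family member, had the largest difference, with 10.3 and 10.6 CPM against 1.42 and 1.90 CPM (2.65 ± 0.28). Srsf10, a splicing repressor in its unphosphorylated form, was at 187 and 193 against 84.9 and 87.4 CPM (1.14 ± 0.10). Srsf11 (0.77), Srsf1, the prototype SR protein (0.55), and Srsf4 (0.54) were also higher. Srsf2, also known as SC35, was lower, at 278 and 291 CPM against 390.1 and 362 CPM (-0.40 ± 0.10, adjusted p = 0.0271). Srsf7, an export adaptor like Srsf3, passed no threshold, at 286 and 272 CPM in P-bodies and 255 and 263 CPM in the cytoplasm (0.11 ± 0.09, adjusted p = 0.412), nor did Srsf5, Srsf6 and Srsf9 (0.02, 0.00 and -0.05).

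On the hnRNP side, Hnrnpr was at 144 and 140.0 CPM in naive P-bodies and 70.3 and 65.8 CPM in the cytoplasm (1.06 ± 0.10, adjusted p = 0.00125). Hnrnph2, which binds runs of G, was at 120.4 and 117 against 60.2 and 54.5 CPM (1.05 ± 0.11). Both P-body values exceeded both cytoplasm values for each of these genes. Of its relatives, Hnrnph1 was higher (0.58), Hnrnph3 lower (-0.66) and Hnrnpf without a call (-0.03). Hnrnpdl (0.91), Hnrnpa1, a repressor of exon inclusion (0.51), and Hnrnpk, which binds C-rich RNA (0.43), were higher. Hnrnpul2 (-0.89) and Hnrnpd, which binds AU-rich elements (-0.40), were lower. Hnrnpu, a nuclear scaffold protein whose mRNA was among the most abundant, had no call, with 1073 and 1067 CPM in P-bodies and 1066 and 967 CPM in the cytoplasm (0.07 ± 0.10, adjusted p = 0.583). Hnrnpa2b1 (-0.01) and Hnrnpll (0.00) had overlapping libraries and no call. Of the 16 members called, Srsf3, Srsf10, Srsf12, Hnrnpdl, Hnrnph2 and Hnrnpr alone kept their call without either naive P-body library. More members were called without cytoplasm replicate 2. Calls over all genes fell and rose in the same fits, so these swings are not particular to the members.

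**Figure D1:**
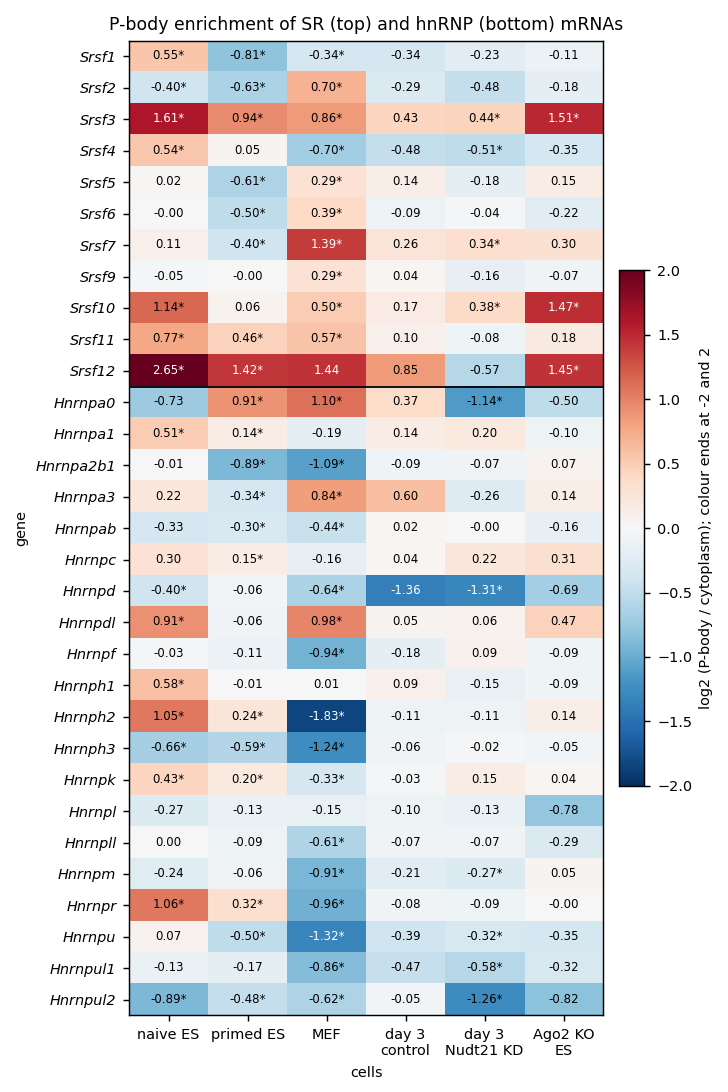
Heat map of the log2 difference between P-body and cytoplasm for the 31 members (rows, SR above hnRNP) in the 6 kinds of cells with P-body libraries (columns), an asterisk marking an adjusted p under 0.05. Srsf3 was positive in all 6 columns, and the hnRNP rows of the MEF column were mostly negative, down to -1.83 for Hnrnph2.

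Primed ES cells had members on both sides of the cytoplasm level. P-bodies held 9 members at a higher and 11 at a lower level than the cytoplasm, where 26.5% of all genes were higher and 24.2% lower. The members' median log2 difference was -0.06, against 0.00 over all genes. Srsf3 was again higher, at 866 and 821 CPM in P-bodies and 436 and 441 CPM in the cytoplasm (0.94 ± 0.05, adjusted p = 7.77e-09). Srsf12 (21.1 and 19.2 against 8.28 and 6.81 CPM) and Srsf11 (0.46) were the other SR genes that were higher. Srsf1 was lower, at 159 and 154 CPM against 274 and 276 CPM (-0.81 ± 0.06, adjusted p = 1.65e-07), and so were Srsf2 (-0.63), Srsf5 (-0.61), Srsf6 (-0.50) and Srsf7. For Srsf7 the values were 281 and 269 CPM in P-bodies and 364 and 359.5 CPM in the cytoplasm (-0.40 ± 0.05, adjusted p = 4.4e-05). The libraries of both fractions did not overlap for any of these called genes.

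Hnrnpa2b1, a splicing repressor related to Hnrnpa1, was lower in primed P-bodies, with 455 and 465 CPM against 840.2 and 866 CPM (-0.89 ± 0.04, adjusted p = 8.7e-09). Hnrnph3 (-0.59) and Hnrnpu, at 843 and 837 against 1185 and 1193 CPM (-0.50 ± 0.04), were also lower. The higher calls among hnRNP genes were smaller, with Hnrnpr at 0.32, Hnrnpk at 0.20 and Hnrnpa1 at 0.14, apart from Hnrnpa0, which lay under 10 CPM (0.91). Hnrnpll was at -0.09 with no call. Leaving out single libraries gave 16 to 22 calls, so no library moved the count by more than 1.5 times, although the calls of Hnrnpa1, Hnrnpa3, Hnrnpc, Hnrnph2 and Hnrnpul2 were each lost without at least 1 library. Nuclear-retained RNAs (a list of 8, Malat1 among them) summed to 720 and 668 CPM in primed P-bodies and 1112 and 895 CPM in the cytoplasm, and to 570 and 543 CPM against 214 and 285 CPM in the naive fractions. Their part in these differences was not tested.

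The difference in enrichment between naive and primed cells was tested as an interaction over the 4 groups. It was positive, meaning more P-body-enriched in naive cells, for 13 members, and negative for 1, where 13.9% of all genes were positive and 11.4% negative. The members' median was 0.23, against -0.04 over all genes. Srsf1 had the largest positive difference (1.22 ± 0.11, adjusted p = 0.000228). This joint fit scales its 4 groups together, so its differences need not equal the gap between the separate values of 0.55 and -0.81. Srsf12 (1.09) and Srsf10 (0.94 ± 0.15) followed, and Srsf3 (0.53), Srsf5 (0.49), Srsf6 (0.36) and Srsf7 (0.36 ± 0.10) were also called. Srsf2 did not pass (0.09 ± 0.12). Hnrnpdl (0.83), Hnrnpa2b1 (0.75), Hnrnph2 (0.67), Hnrnpr (0.60), Hnrnph1 (0.45) and Hnrnpu (0.44) were the positive hnRNP genes, and Hnrnpa0, measured at under 10 CPM, the negative one (-1.77). Without naive P-body replicate 1 or 2 the count of 14 fell to 7 or 8, and without primed cytoplasm replicate 2 to 9. Without any single library Srsf1, Srsf10, Srsf3, Hnrnpdl, Hnrnpa2b1, Hnrnph2 and Hnrnpr were still called, while each of the other calls was lost without at least 1 library.

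In MEFs, most SR mRNAs were higher in P-bodies than in the cytoplasm and most hnRNP mRNAs were lower. Of 31 members, 11 were higher in P-bodies and 15 lower, where 26.6% of all genes were higher and 28.7% lower. SR genes made up 8 of the higher and 2 of the lower calls, with a median log2 difference of 0.50. Among hnRNP genes, 3 were higher and 13 lower, with a median of -0.61. The median over all genes tested was 0.03. As a share of reads, before any scaling, SR genes took 0.243% and 0.231% in P-bodies and 0.150% and 0.156% in the cytoplasm, and hnRNP genes 0.295% and 0.284% against 0.434% and 0.430%.

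Srsf7 was the SR gene with the largest called difference in MEFs. P-bodies held it at 460.3 and 376 CPM, the cytoplasm at 152 and 167 CPM (1.39 ± 0.11, adjusted p = 1.16e-05), or 2.62-fold. Srsf3 was at 676 and 568 CPM against 328 and 359 CPM (0.86 ± 0.10, adjusted p = 9.93e-05). Srsf2, lower in naive and primed P-bodies, was higher in MEF P-bodies, at 288 and 323 CPM against 180.0 and 196 CPM (0.70 ± 0.10, adjusted p = 0.000215). Srsf11 (0.57), Srsf10 (0.50), Srsf6 (0.39), Srsf5 (0.29) and Srsf9 (0.29) were higher by less. Srsf4 (-0.70) and Srsf1 (-0.34) were lower. Srsf12 was under 0.5 CPM in every MEF library and was not called.

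Hnrnph2 was 3.56-fold lower in MEF P-bodies, at 40.4 and 32.9 CPM against 133 and 128 CPM (-1.83 ± 0.12, adjusted p = 4.81e-06), the reverse of its direction in naive cells. Hnrnpu was at 309 and 311 CPM in P-bodies and 782 and 764 CPM in the cytoplasm (-1.32 ± 0.08, adjusted p = 3.74e-06). Hnrnpa2b1 (-1.09), Hnrnpr (-0.96), Hnrnpf (-0.94), Hnrnpm (-0.91), Hnrnpll (-0.61) and Hnrnpk (-0.33) were lower too, whereas Hnrnpa1 passed no threshold (-0.19 ± 0.09). Hnrnpdl, at 176 and 152 against 80.9 and 85.8 CPM (0.98 ± 0.10), Hnrnpa0 (1.10) and Hnrnpa3 (0.84) were the higher hnRNP genes. Both fractions were free of overlap for 30 of the 31 members, Hnrnph1 being the exception. The share over all genes was not counted, so this does not set the members apart. The count of 26 fell to 18 or 17 without MEF cytoplasm replicate 1 or 2, and the calls of Srsf1, Srsf5, Srsf6, Srsf9, Srsf10, Hnrnpab, Hnrnpk and Hnrnpul2 were lost without either. Nuclear-retained RNAs summed to 4818 and 6841 CPM in MEF P-bodies and 1019 and 1106 CPM in the cytoplasm, and their part in these differences was not tested.

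**Figure D2:**
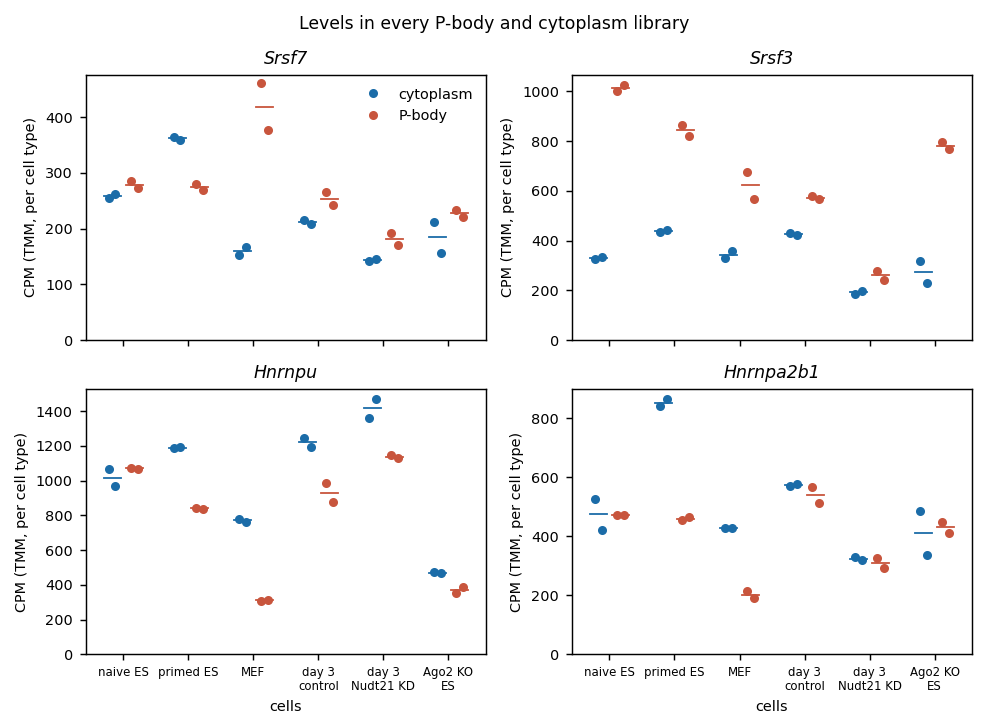
TMM-scaled CPM of Srsf7, Srsf3, Hnrnpu and Hnrnpa2b1 (y axis, from 0) in each P-body and cytoplasm library of the 6 kinds of cells (x axis), 1 point per library and 2 libraries per fraction. Srsf7 separated by fraction most widely in MEFs (460 and 376 CPM against 152 and 167 CPM), and Srsf3 in naive cells (1000 and 1025 CPM against 326 and 336 CPM).

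Enrichment in naive ES cells and MEFs differed for 19 members when the difference itself was tested, positive (higher in naive) for 12 and negative for 7, where 21.5% of all genes were positive and 19.8% negative. The members' median was 0.39, against -0.17 over all genes. Hnrnph2 differed most (2.69 ± 0.17, adjusted p = 7.93e-06), followed among hnRNP genes by Hnrnpr (1.83 ± 0.13), Hnrnpu (1.20 ± 0.12) and Hnrnpa2b1 (0.89 ± 0.16). Hnrnpf (0.73), Hnrnpk (0.57), Hnrnpul1 (0.54), Hnrnpa1 (0.51) and Hnrnpll (0.42) were positive by less, and the poorly counted Hnrnpa0 and Hnrnpa3 (-0.81) were negative. Of the SR genes, Srsf4 (1.05), Srsf1 (0.70) and Srsf3 (0.57) were positive. Srsf7 (-1.47 ± 0.17, adjusted p = 8.68e-05), Srsf2 (-1.30 ± 0.15), Srsf6 (-0.59), Srsf9 (-0.53) and Srsf5 (-0.46) were negative, so they were more P-body-enriched in MEFs. The split of 12 positive to 7 negative became 17 to 3 with no filter on low reads, 17 to 4 in a fit over all groups and 15 to 6 with DESeq2 size factors, and Srsf5 kept its call in none of these. Over all genes, 3895 to 3598 became 4711 to 2852, 4667 to 2952 and 4019 to 3476 in the same fits. The count fell to 12 without naive P-body replicate 2.

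**Figure D3:**
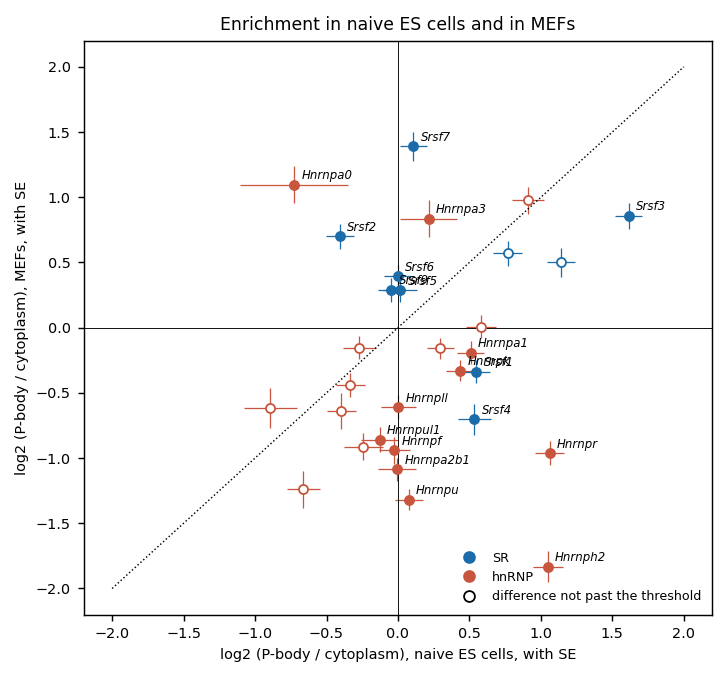
Log2 difference between P-body and cytoplasm in naive ES cells (x axis) and MEFs (y axis) for 30 members, with SE, Srsf12 being left out; filled points passed the test of the difference. Hnrnph2 lies at 1.05 and -1.83 and Srsf7 at 0.11 and 1.39.

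Across the naive, primed and MEF comparisons, which share no libraries, Srsf3 and Srsf11 were called higher in all 3 and Hnrnph3 and Hnrnpul2 lower in all 3. Another 10 members were called in opposite directions in different cells: Srsf1, Srsf2, Srsf4, Srsf5, Srsf6, Srsf7, Hnrnpa3, Hnrnph2, Hnrnpk and Hnrnpr. Hnrnpl, which binds CA-rich RNA, was called in none of the 3 (-0.27, -0.13 and -0.15). How many of all genes follow each of these patterns was not counted, so the counts do not set the members apart. The difference in enrichment between primed cells and MEFs was not tested.

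At day 3 of reprogramming, edgeR called no member between P-bodies and cytoplasm in control cells (0 of 31), where it called 0.646% of all genes. Its unadjusted p was under 0.05 for 7 members, and for 3899 of the 15786 genes tested. DESeq2 called 2105 of the same 15786 genes, 4 members among them, Srsf3 higher and Hnrnpd, Hnrnpu and Hnrnpul1 lower. Srsf3 was at 579 and 567 CPM in P-bodies and 428 and 422 CPM in the cytoplasm (0.43 ± 0.10, adjusted p = 0.0863). Hnrnpd was at 70.0 and 48.1 CPM against 148 and 156 CPM (-1.36 ± 0.19, adjusted p = 0.0504), and Hnrnpu at 988 and 875 against 1248 and 1195 CPM (-0.39 ± 0.11). Neither fraction's libraries overlapped the other's for these 3 genes. Srsf7, at 266 and 242 CPM against 216 and 209 CPM, gave 0.26 ± 0.11, Srsf1 gave -0.34 ± 0.17 and Hnrnpa2b1 -0.09 ± 0.11. The P-body replicates differed from each other, for example 168 and 122 CPM for Srsf1 and 525 and 416 CPM for Hnrnpf. Without either P-body library more members were called, and so were more of all genes.

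Tested against MEFs, the enrichment of 8 members was higher in day 3 controls and that of 3 lower, where 9.59% of all genes were higher and 5.13% lower. The members' median was 0.13 and that of all genes 0.00. Hnrnph2 (1.77 ± 0.18, adjusted p = 0.000583), Hnrnph3 (1.22 ± 0.23), Hnrnpa2b1 (1.04 ± 0.15), Hnrnpu (0.97 ± 0.14), Hnrnpr (0.93 ± 0.14), Hnrnpf (0.80), Hnrnpm (0.74) and Hnrnpll (0.58) were less depleted than in MEFs. Srsf7 (-1.09 ± 0.17, adjusted p = 0.00365), Srsf2 (-0.95 ± 0.15) and Hnrnpdl (-0.89) were less enriched. Srsf3 did not pass (-0.39 ± 0.15). DESeq2 gave 9 members higher and 6 lower, and 2081 and 1392 of the 17488 genes tested. Calls fell from 11 to 3 without day 3 cytoplasm replicate 2, to 6 without replicate 1 and to 7 without MEF cytoplasm replicate 1, and rose to 18 or 17 without day 3 P-body replicate 1 or 2, while Hnrnph2, Hnrnpa2b1 and Srsf7 were called in all 8 of these fits.

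Levels in the cytoplasm alone were compared to set the enrichments beside the mRNA present in that pelleted fraction. In such bulk samples fewer cells of a type and less RNA per cell cannot be told apart. Per kilobase of the longest coding GENCODE transcript, Hnrnpk was the most abundant member in naive (311 CPM per kb), MEF (294) and day 3 cytoplasm (415), and Hnrnpa2b1 in primed cytoplasm (494). The order differed in control total RNA, where Hnrnpa2b1 led (563) and Hnrnpk ranked 5 (340). Srsf7 ranked 11 of 31 in naive (108 CPM per kb), primed (151) and MEF cytoplasm (66.4), and 13 at day 3 (88.3). Naive cytoplasm exceeded primed cytoplasm for 4 members and lay below it for 8, where 22.1% of all genes were higher and 21.6% lower. Srsf1 was at 132 and 129.9 CPM in naive and 259.5 and 260.2 CPM in primed cytoplasm (-0.99 ± 0.11, adjusted p = 0.00141), Hnrnph1 at 126 and 140.2 against 255 and 267 CPM (-0.97 ± 0.12) and Hnrnpf at 855 and 750.0 against 419 and 413 CPM (0.95 ± 0.12). Hnrnpa1 (-0.90) and Hnrnpa2b1 (-0.56) were lower in naive cells, and Srsf7, Srsf3, Hnrnpu and Hnrnpk were not called (-0.19, -0.11, 0.07 and 0.17). The count of 12 fell to 3 or 4 without primed cytoplasm replicate 1 or 2 and rose to 22 without naive cytoplasm replicate 2.

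Against MEFs, naive cytoplasm was higher for 14 members and lower for 5, where 36% of all genes were higher and 35.9% lower. Hnrnpd (157 and 147 against 49.0 and 63.6 CPM, 1.44 ± 0.16) and Hnrnpm (692 and 552 against 292 and 270.3 CPM, 1.14 ± 0.15) differed most among the higher members over 10 CPM. Srsf7 was also higher, at 253 and 260.1 CPM against 166 and 180.2 CPM (0.57 ± 0.10, adjusted p = 0.0051), and Srsf2 (0.87), Srsf5 (0.51) and Hnrnpa1 (0.39) with it. Hnrnph2, which was P-body-enriched in naive cells, was lower in naive than in MEF cytoplasm (59.5 and 54.0 against 145 and 138 CPM, -1.32 ± 0.11), and so were Srsf1 (-0.84), Hnrnpr (-0.67), Hnrnph1 (-0.57) and Srsf10 (-0.55). Without MEF cytoplasm replicate 1 or 2 the count of 19 fell to 11 or 10, and the calls of Srsf5, Srsf7, Srsf10, Hnrnpa1 and Hnrnph1 were lost without either. Day 3 control cytoplasm was higher than MEF cytoplasm for 24 members and lower for 4, where 35.5% of all genes were higher and 33.7% lower, with a members' median of 0.36 against 0.04. Hnrnpab, which also binds CArG-box DNA, was at 871 and 848 CPM against 424 and 429.6 CPM (1.01 ± 0.05, adjusted p = 6.3e-11). Hnrnpd (1.41 ± 0.10) and Srsf2 (438 and 432 against 189 and 206 CPM, 1.14 ± 0.06) rose as well, and Srsf10 (-0.57 ± 0.07) and Hnrnph3 (-0.48 ± 0.11) fell. Srsf7 rose by 0.27 and Srsf3 by 0.16, the latter call being lost without 3 of the 4 libraries, MEF cytoplasm replicate 2 being the exception.

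Knockdown of Nudt21, a subunit of the cleavage factor that selects polyadenylation sites, was followed by lower cytoplasmic levels of most members at day 3. Of 31, 24 were lower than in the day 3 control and 2 higher, where 25% of all genes were lower and 24.6% higher. The members' median log2 difference was -0.44, against -0.01 over all genes. Hnrnpr fell from 165 and 163 CPM in control to 24.9 and 24.9 CPM in knockdown cytoplasm (-2.72 ± 0.08, adjusted p = 9.6e-14), or 6.57-fold. Hnrnpll, a regulator of alternative exons in lymphocytes, fell from 96.5 and 92.5 CPM to 22.3 and 23.3 CPM (-2.06 ± 0.09, adjusted p = 6.94e-12). The knockdown libraries of both genes were close to each other and far below the controls. These counts cover exons with their untranslated 3′ ends (3′ UTRs), and the paper reports globally shorter 3′ UTRs after this knockdown. In the longest coding transcript, the 3′ UTR takes 19419 of 21452 bases in Hnrnpr and 998 of 3116 in Hnrnpll. How far shorter rather than fewer mRNAs lowered the members' counts was not tested.

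Among SR genes, Srsf3 fell from 435 and 426 CPM to 185 and 198 CPM (-1.17 ± 0.06, adjusted p = 1.18e-10), Srsf1 from 191 and 180.2 to 106 and 103 CPM (-0.83 ± 0.07) and Srsf7 from 218 and 211 to 141 and 144 CPM (-0.59 ± 0.06). Srsf6 (-0.47), Srsf2 (-0.41), Srsf9 (-0.34) and Srsf5 (-0.29) were lower as well, and Srsf4, Srsf10, Srsf11 and Srsf12 were not called. Hnrnpa2b1 (-0.84), Hnrnpa1 (-0.48) and Hnrnpk (-0.44) fell. Hnrnpab (0.34 ± 0.06, adjusted p = 0.000134) and Hnrnpu (0.19 ± 0.05, adjusted p = 0.00658) rose, Hnrnpu's call being lost without control replicate 2. Hnrnpa0 (-2.81) fell too, from 25.0 and 25.7 CPM to 3.19 and 4.15 CPM. The summed fibroblast markers were 1639 and 1670 CPM in knockdown and 5433 and 5293 CPM in control cytoplasm, and the pluripotency markers 1267 and 1489 CPM against 628 and 631 CPM. The part of these shifts in the members' fall was not tested.

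**Figure D4:**
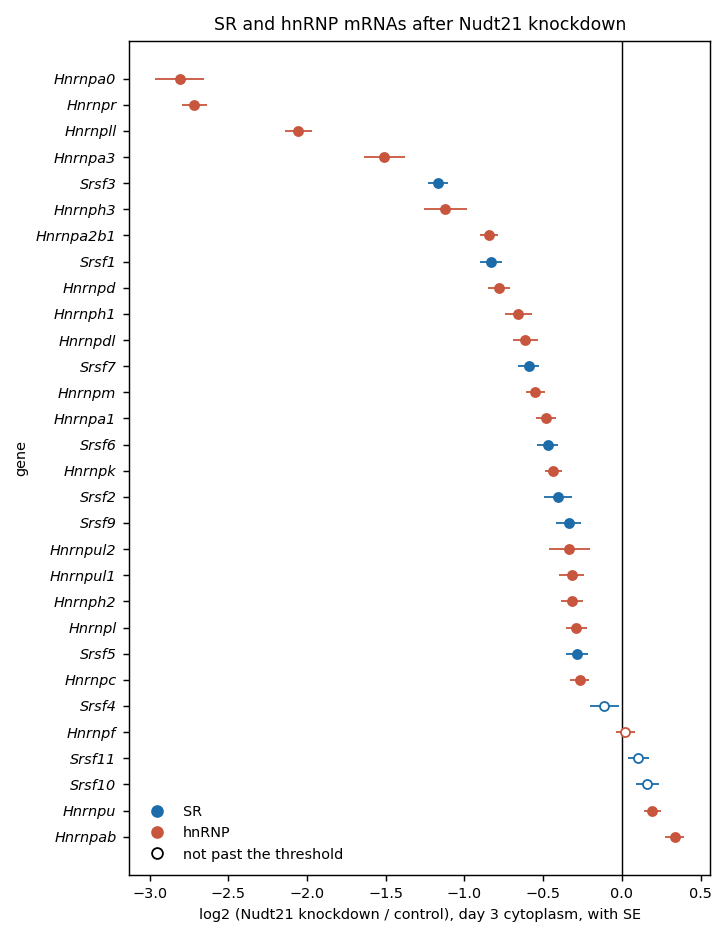
Log2 difference between Nudt21 knockdown and control cytoplasm at day 3, with SE (x axis), for 30 members (y axis, Srsf12 left out), 2 libraries per group; filled points passed the threshold. The 24 lower members run down to -2.81, and Hnrnpab (0.34) and Hnrnpu (0.19) are the higher ones.

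Within knockdown cells, P-body enrichment was higher for 3 members and lower for 7, where 9.04% of all genes were higher and 12.8% lower. The higher members were the SR genes Srsf3 (279.6 and 243 CPM in P-bodies against 185 and 199 CPM, 0.44 ± 0.10, adjusted p = 0.0109), Srsf10 (0.38) and Srsf7 (191 and 171 against 141 and 145 CPM, 0.34 ± 0.09, adjusted p = 0.0267). Hnrnpd was lower, at 27.9 and 44.5 CPM in P-bodies against 91.7 and 87.9 CPM (-1.31 ± 0.18, adjusted p = 0.00101), as were Hnrnpul2 (-1.26), Hnrnpul1 (-0.58), Srsf4 (-0.51), Hnrnpu (-0.32), Hnrnpm (-0.27) and Hnrnpa0, which lay under 10 CPM (-1.14). Hnrnpr and Hnrnpll, whose cytoplasmic levels also fell, were at -0.09 ± 0.12 and -0.07 ± 0.14, with no call. Without knockdown cytoplasm replicate 1 or 2 the count of 10 fell to 3 or 2, and the calls of Srsf3, Srsf4, Srsf7, Srsf10 and Hnrnpu were lost without either. Tested against the day 3 control, enrichment differed for 0 members with edgeR and 0 with DESeq2, against 0.0118% of all genes in edgeR. In edgeR 3 members had an unadjusted p under 0.05, as did 819 of the 16973 genes tested. Differences for Srsf3, Srsf7 and Hnrnpu were 0.04 ± 0.14, 0.11 ± 0.15 and 0.10 ± 0.13. Without control P-body replicate 1 the count was 5.

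In Ago2 KO cells, which lack an Argonaute protein that carries microRNAs, 3 members were called, all of them SR genes higher in P-bodies. Among all genes 5.47% were higher and 1.05% lower, and the members' median was -0.07 against 0.04. Srsf3 was at 795 and 767 CPM in P-bodies and 319.6 and 228 CPM in the cytoplasm (1.51 ± 0.31, adjusted p = 0.0236). Srsf10 was at 244 and 192 against 83.9 and 73.3 CPM (1.47 ± 0.28, adjusted p = 0.0159) and Srsf12 at 9.52 and 11.1 against 3.50 and 4.04 CPM (1.45 ± 0.29). Their libraries did not overlap between fractions. Srsf7 (0.30 ± 0.28), Srsf1 (-0.11 ± 0.25), Hnrnpu (-0.35 ± 0.28), Hnrnpa2b1 (0.07 ± 0.30) and Hnrnpk (0.04 ± 0.29) passed no threshold. All 3 calls were lost without either P-body library, and 7 members were called without cytoplasm replicate 1. With the replicate number as a block, 3 members were higher and 3 lower, the lower ones being Hnrnpd (-0.69), Hnrnpl (-0.76) and Hnrnpul2 (-0.79). That fit called 2565 of the 16808 genes tested higher and 1613 lower, so these counts do not set the members apart. The cytoplasm libraries differed, since the members took 0.6876% and 0.5329% of their reads, and nuclear-retained RNAs summed to 666 and 709 CPM in P-bodies and 509 and 205 CPM in the cytoplasm. Their part in the calls was not tested. This table was counted by another pipeline and holds no Ago2-intact cells, so no test of the KO itself was made.

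Ribosome occupancy, the level in polysome RNA over that in total RNA, was lower than that of the average gene for most hnRNP mRNAs in control ES cells, and for 1 SR mRNA. Of 31 members, 5 were higher in polysomes and 16 lower, where 18.8% of all genes were higher and 24.1% lower. All 5 higher members were SR genes, and 15 of the 16 lower ones were hnRNP genes. The SR median was 0.12 and the hnRNP median -0.48, against 0.02 over all genes. As a share of reads, SR genes took 0.448% to 0.458% in polysome and 0.352% to 0.366% in total RNA, and hnRNP genes 0.879% to 0.903% and 1.07% to 1.13%. Nuclear-retained RNAs summed to 647 to 747 CPM in polysome and 523 to 629 CPM in total RNA, and their part was not tested.

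Hnrnpu was at 342, 336 and 341 CPM in the polysome libraries and 1163, 1210 and 1060 CPM in total RNA (-1.75 ± 0.07, adjusted p = 3.57e-12), 3.37-fold lower. Hnrnpm, a splicing regulator that binds GU-rich RNA, was at 149.6, 143 and 167 CPM against 513, 506 and 496 CPM (-1.72 ± 0.07, adjusted p = 5.61e-12). Every polysome library lay below every total RNA library for both genes. Hnrnpul2 (-1.20 ± 0.07) and Hnrnpk (527, 505 and 557 against 1043, 1036 and 951 CPM, -0.93 ± 0.07) followed, with Hnrnpf (-0.71), Hnrnph1 (-0.60), Hnrnph2 (-0.58), Hnrnpll (-0.54) and Hnrnpa2b1 (-0.49). Hnrnpa1 (0.02 ± 0.07) and Hnrnpab (0.06 ± 0.06) had no call, and the differences of Hnrnpc (-0.17) and Hnrnph3 (-0.16) lost theirs with DESeq2 size factors and without single libraries, among them control polysome replicates 1 and 2. On the SR side, Srsf5 was at 420.4, 416 and 454 CPM in polysomes and 349, 328 and 315 CPM in total RNA (0.38 ± 0.06, adjusted p = 0.000136). Srsf9 (0.36 ± 0.07), Srsf3 (807, 825 and 884 against 709.6, 698 and 681 CPM, 0.27 ± 0.06), Srsf10 (0.26 ± 0.07) and Srsf1 (0.19 ± 0.06) were higher by similar amounts, Srsf1 losing its call without control polysome replicate 1 or 2 or total RNA replicate 2. Srsf7 (0.12 ± 0.06, adjusted p = 0.119), Srsf2 (0.06), Srsf6 (-0.01) and Srsf11 (0.09) were not called, and Srsf4 was the lower SR gene (-0.21 ± 0.06). The P-body libraries of naive and primed cells came from other experiments and were not tested against these.

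**Figure D5:**
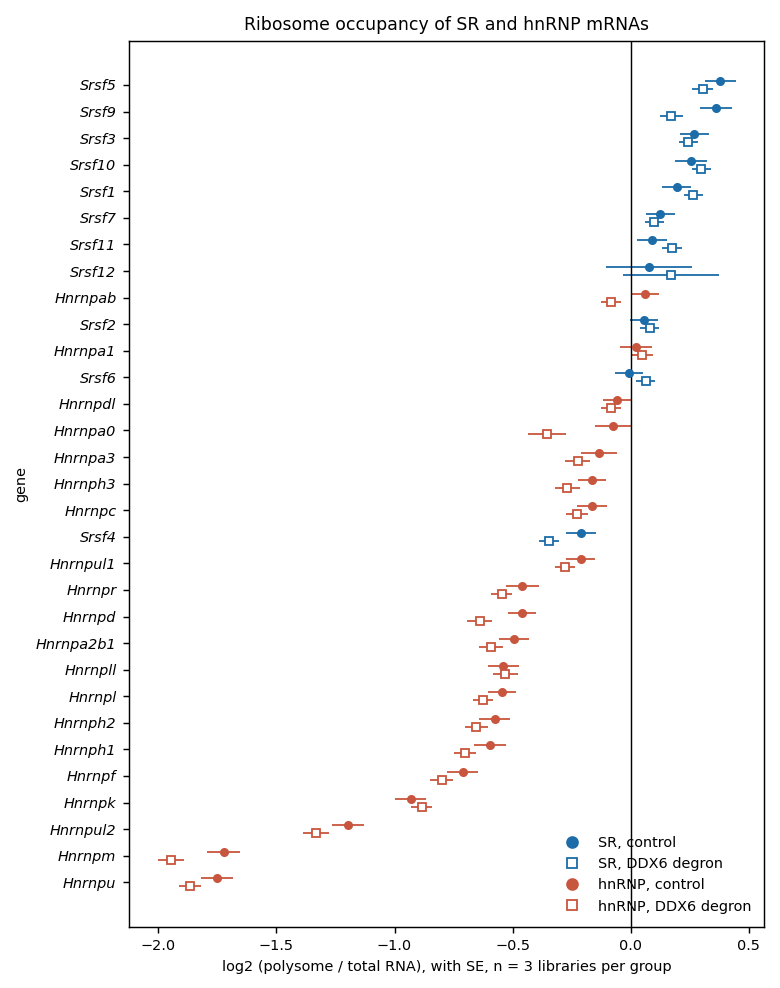
Log2 ratio of polysome to total RNA, with SE (x axis), for the members (y axis) in control (filled) and DDX6 degron (open) ES cells, 3 libraries per group, SR and hnRNP genes in different colours. Srsf5 (0.38 and 0.31) lies to the right of 0 and Hnrnpm (-1.72 and -1.95) and Hnrnpu (-1.75 and -1.87) far to the left.

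With DDX6 degraded the same measure called 7 members higher, all SR genes, and 18 lower, of which 17 were hnRNP genes, where 24% of all genes were higher and 26.8% lower. Hnrnpm was at 146, 122 and 127 CPM in polysome and 514, 509 and 501 CPM in total RNA (-1.95 ± 0.05, adjusted p = 2.12e-18), and Hnrnpu at 299.9, 299 and 276 CPM against 1093, 1014 and 1089 CPM (-1.87 ± 0.05, adjusted p = 2.78e-19). Srsf5 was at 416, 399 and 433 against 339.7, 321 and 349 CPM (0.31 ± 0.04), and Srsf10 (0.30 ± 0.04), Srsf1 (0.26 ± 0.04) and Srsf3 (0.24 ± 0.04) were again higher. Srsf7 was just past the threshold (0.10 ± 0.04, adjusted p = 0.0405) and lost its call without any 1 of the 6 libraries. The change in occupancy itself, degron minus control, called 0 members and 0% of all genes with edgeR and 0 members with DESeq2. At an unadjusted p under 0.05, edgeR gave 5 members, and 844 of the 16345 genes tested. The change ran from -0.28 (Hnrnpa0) to 0.09 (Srsf12) over the members. Srsf7 was at -0.03 ± 0.07, Srsf3 at -0.03 ± 0.07, Hnrnpu at -0.12 ± 0.08 and Hnrnpm at -0.22 ± 0.09.

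Total RNA of degron cells differed from control for 0 members with edgeR, which called 3.31% of all genes. Its unadjusted p was under 0.05 for 7 members, and for 2981 of the 15380 genes tested. DESeq2 called 832 of these genes, 3 members among them: Hnrnph3 higher (109.5, 106 and 107 CPM in degron and 93.9, 93.0 and 93.4 CPM in control, 0.20 ± 0.05, adjusted p = 0.0573 in edgeR) and Srsf10 (-0.20 ± 0.06) and Srsf11 (-0.20 ± 0.05) lower. The degron and control libraries of these 3 genes did not overlap. Srsf7 was at 371, 369 and 368 CPM in degron and 366, 359.9 and 359 CPM in control (0.03 ± 0.05), and Srsf3 (0.02), Hnrnpa2b1 (0.08) and Hnrnpk (-0.04) had overlapping libraries. Without control total RNA replicate 3 the count was 8, and 3373 of the 15209 genes tested were called.

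Genes that work with the members gave a background. Of 16 SR-related regulators, kinases and importer, 10 were higher and 3 lower in naive P-bodies, 9 and 4 in primed and 6 and 2 in MEF P-bodies, and all of them passed the read filter. Over all genes, 22.6% were higher and 15.4% lower in naive, 26.5% and 24.2% in primed, and 26.6% and 28.7% in MEF P-bodies. Clk1 and Clk4, kinases that phosphorylate SR proteins, were at 1.52 and 1.14 in naive and 1.65 and 1.44 in MEF P-bodies, and Rbm39, an SR-like splicing factor, at 1.33 and 1.44 (all log2 P-body to cytoplasm). Of 11 hnRNP proteins under other symbols, 3 were higher and 4 lower in naive, 5 and 4 in primed and 5 and 4 in MEF P-bodies. Ptbp2, the neuronal polypyrimidine tract protein, was higher in naive (2.40) and primed P-bodies (1.05). Of 32 core spliceosome genes, 6 were higher and 12 lower in naive, 7 and 15 in primed, and 10 and 14 in MEF P-bodies. Their naive cytoplasm level was above the MEF level for 27 of 32, where 36% of all genes were higher, and their median occupancy in control polysomes was -0.57, with 9 higher and 21 lower where 18.8% and 24.1% of all genes were, and Snrnp200, the U5 helicase, at -2.63. After Nudt21 knockdown, 2 of the regulators rose and 8 fell, 2 and 7 of the other hnRNPs, and 5 and 10 of the core genes, where 24.6% and 25% of all genes did.

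Sequence properties were set beside the measurements over the 31 members, as a description with no test, since members of a family share ancestry and the libraries. Arginine-serine codon pairs per 1000 codons, the hallmark of the SR family, ranked with occupancy in control (Spearman's rho 0.744) and degron cells (0.764). They ranked with MEF enrichment at 0.655, and gave 0.201 for naive and -0.115 for primed enrichment. Their density separates the families without overlap, so these values partly restate the split between SR and hnRNP genes. Ranking within a family was not computed. GC content of the longest transcript ranked with naive enrichment at -0.507 and with Ago2 KO enrichment at -0.463, so members of lower GC were the more enriched there, and at 0.016 in primed cells. Transcript length gave 0.189, 0.118 and -0.229 in naive, primed and MEF P-bodies. Hnrnpr had the longest transcript (21452 bases) and Srsf9 the shortest (1162 bases).

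Counts of some members were uncertain. Hnrnpa0 lay between 1.14 and 41.4 CPM in the P-body and cytoplasm table but between 355 and 605 CPM in the polysome and total RNA table, and Hnrnpa3 between 5.84 and 44.8 CPM against 471 to 633 CPM. Means in naive cytoplasm and control total RNA also lay apart for Hnrnpul2 (16.6 and 323 CPM), Hnrnpa1 (136 and 1039 CPM) and Srsf1 (113 and 597 CPM). Those of Hnrnpk (924 and 1010 CPM) lay close. In Ago2 KO cytoplasm, quantified with salmon, the means were 102 CPM for Srsf1, 40.7 for Hnrnpul2, 413 for Hnrnpa1, 354 for Hnrnpa3 and 64.6 for Hnrnpa0. Naive cytoplasm and control total RNA also differed in more than the pipeline. Total RNA was taken from cleared cell lysate and prepared with another library kit. The part of fraction, library kit and pipeline, with its treatment of reads that fit several places in the genome, was not tested. Values of Hnrnpa0, Hnrnpa3 and Hnrnpul2 are uncertain, and to a lesser degree those of Hnrnpa1 and Srsf1. The P-body and cytoplasm libraries keep no strand, so reads of Srsf2 cannot be told from those of Mettl23 and Mfsd11 on the opposite strand, nor those of Hnrnpk from Rmi1, Hnrnph3 from Rufy2 or Hnrnpab from Phykpl, where they overlap. Srsf1, Srsf4, Hnrnpd, Hnrnpf and Hnrnpr also overlap annotated genes on the opposite strand. Hnrnpa3, Hnrnpm and Hnrnpul2 each overlap another annotated gene on their own strand, which is March2 for Hnrnpm.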

How the data were processed

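P-body and cytoplasm RNA of 5 kinds of cells was aligned by the authors with HISAT2 to mm10 and counted with featureCounts on UCSC refGene, and the Ago2 KO, polysome and total RNA libraries were quantified with salmon. The values of all 3 deposited tables are expected counts (estimated counts that need not be whole); 17.6% to 25.7%, 11.6% to 13.1% and 5.05% to 6.19% of values were not whole, and values were rounded. Libraries were grouped by their labels. Genes with at least 10 reads over the libraries of a comparison were kept, scaled by TMM and tested with edgeR 4.0.16 (quasi-likelihood, Benjamini-Hochberg over all genes, threshold 0.05) in R 4.3.3, each comparison on its own groups, and differences of enrichment as interaction terms. The procedure was tested on simulated data. No pair of replicates was within sampling noise (chi-square per degree of freedom 1.78 to 306). Depth sets the counting precision, and libraries rather than reads were the replicates. Alternatives were DESeq2 1.42.0, its size factors, other filters, a replicate block, a fit over all groups and leaving out each library.

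The members and lists were chosen with earlier results of these data known. Any member may be named. Values are given for Srsf7, Srsf1, Srsf2, Srsf3, Srsf5, Hnrnpa1, Hnrnpa2b1, Hnrnpu, Hnrnpk, Hnrnpll and the 2 largest called differences in each direction at a mean of at least 10 CPM. Outside them, only Nudt21, Ago2, Ddx6 and the listed splicing genes have values. Sequences and gene properties came from GENCODE vM21 (31 of 31 members matched), read with Python 3.11.15.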

Additional observations from a re-analysis of the deposited data

Results flagged for a closer look

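Enrichment in P-bodies differed between kinds of cells for several members when the difference itself was tested with edgeR's quasi-likelihood test. Between naive and primed ES cells it differed by 1.22 on the log2 scale for Srsf1 and by 0.94 for Srsf10, both higher in naive cells. Between naive cells and MEFs it was 2.69 higher in naive cells for Hnrnph2 and 1.83 higher for Hnrnpr, and the difference was -1.47 for Srsf7 and -2.004 for Hnrnpa0, whose low counts make it uncertain. Between day 3 control cells and MEFs it was 1.77 higher at day 3 for Hnrnph2 and 1.22 higher for Hnrnph3, and -1.09 for Srsf7 and -0.95 for Srsf2. Both of these comparisons use the same MEF libraries. Single libraries far from their group were not looked for, since groups held 2 or 3 libraries.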

How the results depend on the processing

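Of 558 member results, the direction and the side of the threshold were kept in 531 with DESeq2, 546 with its size factors, 534 with no filter and 539 with a replicate block, in 545 of 554 with edgeR's own filter, and in 469 of 527 in a fit over all groups, which for the Ago2 KO table is the same fit. Day 3 control enrichment had 0 members called, against 4 with DESeq2, 1 with its size factors, 1 with edgeR's own filter, 3 with no filter and 5 over all groups. Total RNA of degron cells had 0, against 3 with DESeq2, 1 with edgeR's own filter, 2 with no filter and 3 over all groups. Primed enrichment fell from 20 to 13 (4 higher and 9 lower) over all groups and day 3 against MEF cytoplasm from 28 to 18, and the change of enrichment on Nudt21 knockdown had 2 with no filter. Enrichment in knockdown cells was 1 higher and 6 lower over all groups. The cause of these shifts was not tested.

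By the study's methods, each cytoplasm sample was an aliquot of the fraction its P-bodies were sorted from, but nothing states that equal replicate numbers mark a shared sort. Deviations of same-numbered libraries correlated at -0.0582 to 0.199 in the 5 kinds of cells of the P-body table, 0.542 in the Ago2 KO, 0.027 to 0.324 in control and -0.00333 to 0.165 in degron polysome and total RNA. With the replicate block, Ago2 KO enrichment called 6 members (3 higher and 3 lower), day 3 control enrichment 1 (Hnrnpd) and naive enrichment 14 (12 and 2), without Hnrnpd and Srsf2. Naive minus primed enrichment fell from 14 to 10, without Hnrnph1, Srsf5, Srsf6 and Srsf7.

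Leaving out 1 library at a time gave 6 to 26 members called in naive, 17 to 28 in MEF, 1 to 17 in day 3 control, 2 to 14 in Nudt21 knockdown and 0 to 7 in Ago2 KO enrichment. It gave 7 to 20 for naive minus primed, 12 to 21 for naive minus MEF, 3 to 18 for day 3 control minus MEF and 0 to 5 for knockdown minus control enrichment. For cytoplasm it gave 3 to 22 in naive against primed and 10 to 24 in naive against MEF, and 0 to 8 for degron against control total RNA. Counts over all genes also moved between these fits, so the swings are not particular to the members. A group left with 1 library was assumed to vary like the others. Of 3162 such member results 2785 were kept, 225 lost the call, 151 gained one and 1 reversed: Hnrnpa2b1 in naive cells, which ran from -0.14 to 0.16.

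Counts over all genes moved by more than 1.5 times in some settings. Day 3 control enrichment went from 102 genes to 2105 with DESeq2, 202 with edgeR's own filter, 1940 with no filter, 802 with the block and 3308 over all groups. Ago2 KO enrichment went from 1095 to 1731, 716 with size factors, 2643 with no filter and 4178 with the block. Over all groups, primed enrichment went from 8209 to 5128, knockdown enrichment from 3501 to 2100 and knockdown cytoplasm from 7934 to 4877. Degron total RNA went from 509 to 832 with DESeq2, 863 with no filter, 82 with the block and 1138 over all groups. The 2 genes called for knockdown minus control became 26, 62 with no filter and 1 with the block, and the 0 for degron minus control occupancy 4, 16 and 6. With medians over transcripts, the rank correlation of GC content moved from 0.016 to -0.016 in primed P-bodies, 0.037 to 0.151 in MEF P-bodies, -0.322 to -0.518 in knockdown P-bodies, -0.094 to 0.02 in control and -0.149 to -0.044 in degron occupancy, and that of length from -0.279 to -0.028 in knockdown P-bodies.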
